A study of Mus musculus with 13 samples.

Results

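The 10 genes described here mark hepatic stellate cells at rest or during their activation: Acta2, Tagln, Des, Pdgfrb, Lrat, Reln, Dcn, Lum, Tgfb1 and Timp1. They were chosen by name and make up 10 of the 53465 genes in a table of liver RNA counts, and 9 of them were among the 13545 genes abundant enough to be tested. Liver RNA was sequenced from 6 WT and 7 Nod2-/- mice, all male, on the BALB/c strain, with 1 library per mouse, so each replicate is a separate animal. Nod2 is an intracellular sensor of bacterial peptidoglycan, and the Nod2-/- mice carry a deletion of its gene. Mice of both genotypes had been given DMBA, a carcinogen, on the skin as pups and fed HFD, a diet high in fat, from then on, and they were sampled at 30 weeks according to the labels. None of the 13 mice was untreated or on another diet, so the only contrast is Nod2-/- against WT under DMBA + HFD. The labels give the disease state of every sample as cancer, and no source used here says how much tumor tissue a sample held. The paper reports that most male Nod2-/- mice under DMBA + HFD had liver tumors, while most male WT mice so treated had none. Which of the 13 mice had tumors is not given in the sources used here, and the part of tumors in the values below was not tested. WT and Nod2-/- mice were bred separately in the same room, from several cages, and were not littermates.

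Stellate cells lie between the hepatocytes and the sinusoidal endothelium and are the main store of vitamin A in the body. When the liver is injured they lose their retinoid droplets and become contractile, matrix-producing myofibroblasts that express smooth muscle actin, respond to PDGF and TGFβ, and secrete collagen and inhibitors of matrix proteases. This change is the main source of scar tissue in the diseased liver.

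Depth was 14886273 to 20579984 reads counted on genes in WT mice and between 13824780 and 19391431 for the Nod2-/- genotype. Values are normalized counts, that is counts scaled to the same effective library size, and fold changes are log2 ratios of Nod2-/- over WT from the quasi-likelihood test of edgeR, with p adjusted by the Benjamini-Hochberg method (FDR) over all genes tested. The Nod2 transcript had 0 to 4 counts in WT and 1 to 6 counts in Nod2-/- mice and could not check the labels. The tissue label was borne out by hepatocyte markers such as Alb and Apoa1, whose summed normalized counts were 1382490 to 1927130 in WT and 1438550 to 3016900 in Nod2-/- mice. A pair of mice stood apart from the rest. WT replicate 3 had the highest Reln level, 2808, and leaving it out raised the number of genes past 5% FDR from 157 to 1156. Nod2-/- replicate 7 had a summed neutrophil marker level of 15645, against 59.2 to 653 in the other 12 mice.

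At 5% FDR, 0 of the 9 tested stellate cell genes differed between Nod2-/- and WT livers by edgeR, where 1.16% of all genes tested passed. At an unadjusted p under 0.05 by the same edgeR fit, 1 of the 9 passed, Tgfb1, where 23.1% of all genes tested did. By DESeq2 1 member, again Tgfb1, was past 5% FDR, where 7.29% of genes tested passed. Without WT replicate 3 the edgeR count of members stayed at 0, where 8.49% of genes tested passed. The normalized counts of the genotypes overlapped for each of the 10 genes, whereas they did not overlap for 1.44% of genes tested. The median log2 fold change of the 9 members was 0.18, beside 0.02 for all genes tested. In whole tissue, fewer cells of a type and less RNA per cell cannot be told apart.

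**Figure D1:**
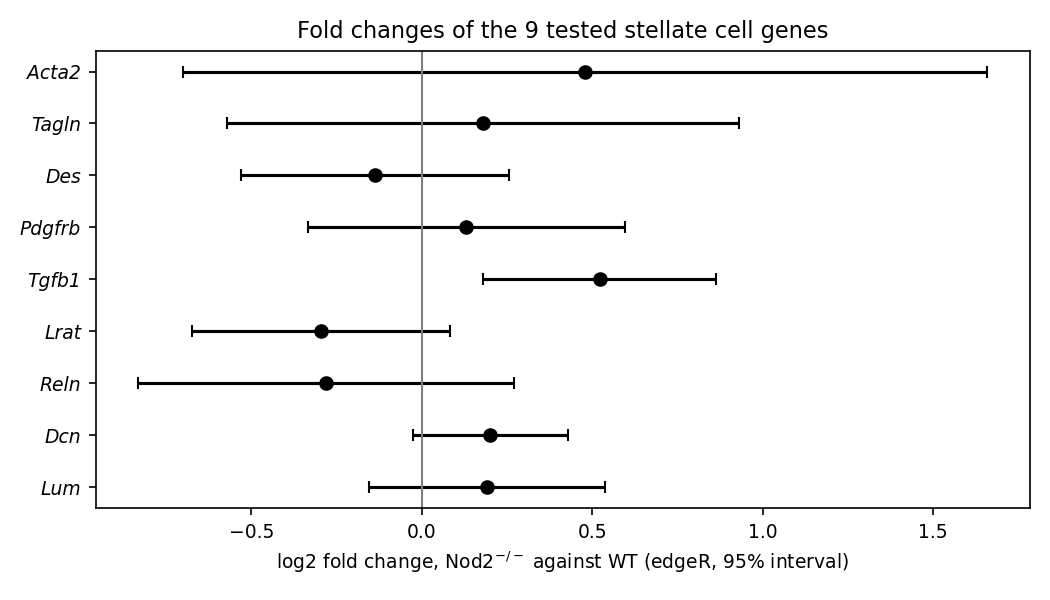
Log2 fold change of each tested stellate cell gene, Nod2-/- against WT (points, edgeR), with its 95% interval (bars); Timp1 was too low to be tested. The interval lies wholly above 0 for Tgfb1 (0.18 to 0.86) and spans 0 for the other 8 genes.

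Acta2 encodes the smooth muscle actin by which activated stellate cells are recognized. The gene (ENSMUSG00000035783.8) lies on chromosome 19, at 34241090 to 34255590 of GRCm38, and its counts varied widely from mouse to mouse. In WT mice the lowest, median and highest normalized counts were 6.58, 9.07 and 65.5. In Nod2-/- mice they were 13.7, 29.8 and 57.1. Replicates 1, 2, 4 and 5 of the WT group were all at or below 9.94, lower than any Nod2-/- mouse, but WT replicates 3 (43.4) and 6 (65.5) lay among or above the Nod2-/- values. Mean levels of 23.5 ± 24.96 (SD, n = 6) in WT and 33.8 ± 17.0 (SD, n = 7) in Nod2-/- mice gave a log2 fold change of 0.48 (SE 0.55, 95% interval -0.70 to 1.66, edgeR FDR = 0.626). The difference in mean log2(normalized counts + 1), Nod2-/- minus WT, was 0.92, with a two-sided exact permutation p of 0.152. The edgeR estimate rested on the few high WT mice: without WT replicate 6 it was 1.12 (edgeR FDR = 0.210), without WT replicate 3 it was 0.72 (edgeR FDR = 0.452), and with any of the other 11 mice left out it stayed between 0.29 and 0.61. Over these 13 fits the edgeR FDR of Acta2 ranged from 0.210 to 0.807. The exact permutation p with 1 mouse left out ranged from 0.0303 to 0.284. It was under 0.05 only without WT replicate 6, where the difference in mean log2(normalized counts + 1) was 1.32.

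Control of Acta2 by serum response factor, a transcription factor that drives contractile genes, runs through CArG boxes close to the start of the gene. Such a box is 10 bases long, opens with CC, closes with GG and has 6 A or T bases between. Windows of 250 bases before the start, from RefSeq on build GRCm38.p6, were matched for 6 of the 10 genes, Acta2, Des, Lrat, Reln, Tgfb1 and Timp1, and those of Tagln, Pdgfrb, Dcn and Lum were not analysed here. In the Acta2 window 2 boxes with at most 1 departure in their 6 middle bases were found, with their first bases 84 and 34 bases before the start, and none without a departure. They are shown, with the box in capitals and 10 bases on each side, because Acta2 and Tagln are contractile genes whose levels moved together from mouse to mouse. The first is at chr19:34255438-34255467 and the second at chr19:34255388-34255417, both given 5′ to 3′ on the minus strand, and 217 bases of this window lie in an exon of a longer Acta2 transcript in GENCODE.
Acta2 site 1: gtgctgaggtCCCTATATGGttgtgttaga
Acta2 site 2: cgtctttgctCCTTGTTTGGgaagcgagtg
Of 32851 RefSeq windows of this length, 8.59% held at least 1 such box, 0.67% held at least 2, and 1.47% held a box without a departure. The box reads the same on both strands in this pattern. Des, the gene of a muscle-type filament protein, had no such box in its window at chr1:75360042-75360291 on the plus strand, shown whole for comparison.
Des: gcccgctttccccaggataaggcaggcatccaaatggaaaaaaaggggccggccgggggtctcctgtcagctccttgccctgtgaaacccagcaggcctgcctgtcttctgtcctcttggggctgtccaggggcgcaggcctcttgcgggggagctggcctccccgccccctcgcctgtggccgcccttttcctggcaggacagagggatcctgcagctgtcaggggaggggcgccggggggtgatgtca
The Lrat window held 1 box with a departure, 223 bases before the start, and those of Reln, Tgfb1 and Timp1 held none. A match of letters is a description of the window and not a site shown to be bound.

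Tagln encodes transgelin, an actin-binding protein of smooth muscle that is also made by myofibroblasts. The gene (ENSMUSG00000032085.5) is on chromosome 9, at 45929619 to 45936058. Its lowest, median and highest normalized counts were 49.3, 91.3 and 225 in WT mice and 53.9, 128 and 184 in Nod2-/- mice. Every Nod2-/- value fell inside the WT range. The means were 106 ± 66.3 (SD, n = 6) and 121 ± 43.7 (SD, n = 7), with a log2 fold change of 0.18 (SE 0.35, 95% interval -0.57 to 0.93, edgeR FDR = 0.790). Without WT replicate 6, the mouse with the highest value, the log2 fold change was 0.55. It was 0.03 to 0.10 without any of WT replicates 1, 2 and 4 or Nod2-/- replicates 1 and 6, and 0.31 without Nod2-/- replicate 7. Exons of Tagln overlap those of Pcsk7, a convertase gene on the opposite strand with 643 ± 40.1 (SD, n = 6) and 545 ± 44.9 (SD, n = 7) normalized counts, and those of the antisense gene Gm48529 with 40.8 ± 10.2 (SD, n = 6) and 46.3 ± 9.46 (SD, n = 7). The libraries kept the strand, but whether the counting used it is not given in the sources used here, so reads of these genes may have been exchanged.

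Acta2 and Tagln moved together from mouse to mouse. Over the 13 mice, after subtracting each genotype's mean, their log2 levels correlated with Pearson's r = 0.85 (permutation p = 0.00015, adjusted over 8 pairs of members 0.0012) and Spearman's rho = 0.85 (permutation p = 0.00077, adjusted 0.00616). Without the 2 mice farthest from the median Acta2 level, WT replicates 2 and 4, r was 0.82 (permutation p = 0.00176). Within the genotypes r was 0.85 in the 6 WT and 0.89 in the 7 Nod2-/- mice. Among all genes tested, the 5 whose log2 levels were most like those of Acta2 over the 13 mice were Tgfb1i1 (r = 0.89), which encodes a focal adhesion protein induced by TGFβ, Ccdc127 (0.88), Marveld3 (0.88), a tight junction gene, Tagln itself (0.85) and Ctnna1 (0.85), which encodes α-catenin. These r values were the highest picked from all genes, so they are a description.

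**Figure D2:**
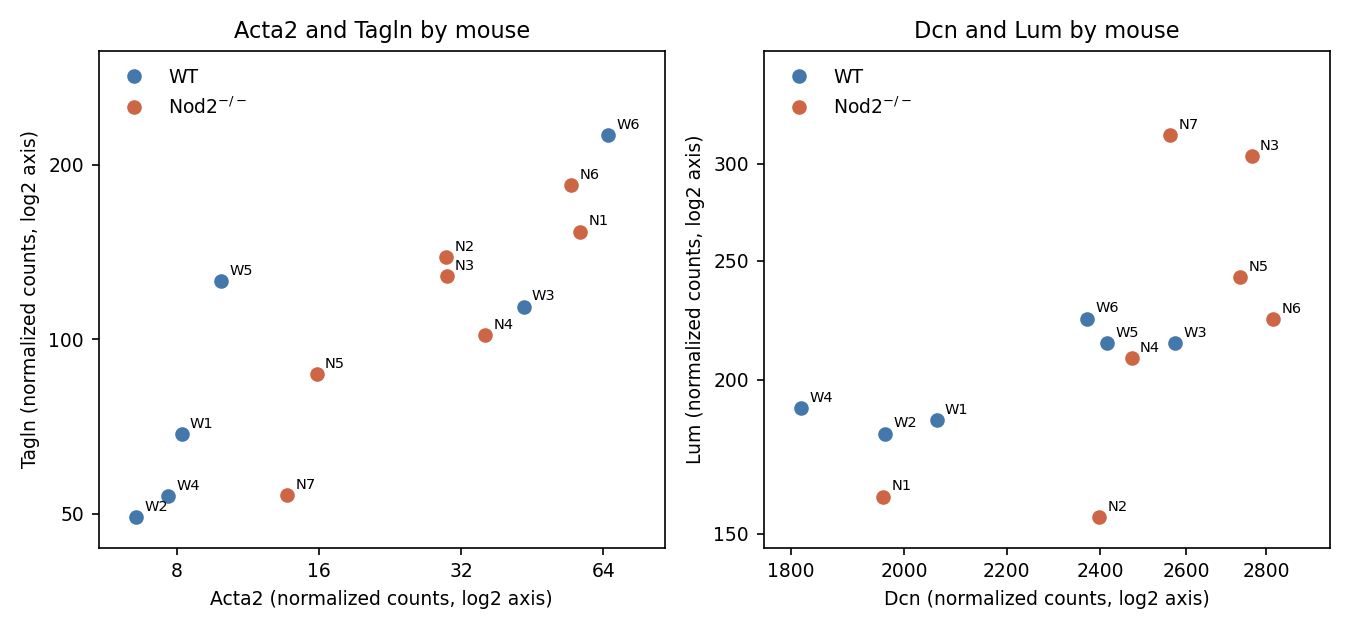
Normalized counts of Acta2 against Tagln (left) and of Dcn against Lum (right) in each of the 13 mice, on log2 axes, labelled W (WT) or N (Nod2-/-) with the replicate number. Acta2 and Tagln are both highest in WT replicate 6 and both lowest in WT replicate 2 (r = 0.85), and Dcn and Lum show a looser relation (r = 0.63).

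Des encodes desmin, an intermediate filament protein of muscle and, in rodents, of stellate cells in both states. The gene (ENSMUSG00000026208.9) lies on chromosome 1, at 75360329 to 75368579. Its lowest, median and highest normalized counts were 50.4, 56.7 and 89.2 in WT mice and 43.4, 58.8 and 84.2 in Nod2-/- mice. The groups covered almost the same range, and the high values belonged to WT replicates 3 and 6 and Nod2-/- replicate 6. The log2 fold change was -0.14 (SE 0.18, 95% interval -0.53 to 0.26, edgeR FDR = 0.683). Without WT replicate 6 it was -0.02, without WT replicate 3 or Nod2-/- replicate 1 -0.08, and without Nod2-/- replicate 6 -0.24. The antisense gene Gm15179, which overlaps exons of Des, had 0 counts in all 13 mice. Acta2 and Des correlated with r = 0.63 over the 13 mice (permutation p = 0.0343, adjusted 0.0685) and rho = 0.45 (permutation p = 0.150, adjusted 0.291), and without WT replicates 2 and 4 with r = 0.55 (permutation p = 0.116). The value of r was 0.99 in the WT and 0.06 in the Nod2-/- mice, and the difference between the genotypes was not tested.

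Pdgfrb encodes the receptor through which PDGF drives stellate cells to divide. The gene (ENSMUSG00000024620.11) is on chromosome 18, at 61045150 to 61085061. WT mice ranged from 71.8 to 160 normalized counts around a median of 121, and Nod2-/- mice had a lowest, median and highest value of 93.1, 121 and 194, so that the medians were nearly the same. Nod2-/- replicate 3 alone exceeded every WT mouse. The means were 118 ± 38.7 (SD, n = 6) and 129 ± 33.7 (SD, n = 7), with a log2 fold change of 0.13 (SE 0.22, 95% interval -0.33 to 0.60, edgeR FDR = 0.749). Single mice moved this estimate: it was 0.02, 0.04 and 0.0053 without WT replicate 1, WT replicate 2 and Nod2-/- replicate 3, and 0.22 without either WT replicate 3 or WT replicate 6. Pdgfrb and Des correlated with r = 0.67 over the 13 mice (permutation p = 0.0248, adjusted 0.0662) and rho = 0.55 (permutation p = 0.0671, adjusted 0.179), and with r = 0.76 without Nod2-/- replicate 3 and WT replicate 1 (permutation p = 0.00464).

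Tgfb1 encodes the main cytokine that turns stellate cells into matrix producers. It is secreted by many liver cells, macrophages and platelets included. The gene (ENSMUSG00000002603.15) lies on chromosome 7, at 25687002 to 25705077. In WT mice the lowest, median and highest normalized counts were 53.7, 71.8 and 81.1. In Nod2-/- mice they were 70.4, 103 and 135. Of the 7 Nod2-/- mice 6 were above every WT mouse, and only Nod2-/- replicate 2 lay inside the WT range. The means were 69.6 ± 11.2 (SD, n = 6) and 99.996 ± 20.6 (SD, n = 7).

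The log2 fold change of Tgfb1 was 0.52 (SE 0.16, 95% interval 0.18 to 0.86), a ratio between 1.13 and 1.82, and the unadjusted edgeR p was 0.00531. After adjustment over all genes tested, FDR was 0.0889 by edgeR and 0.0406 by DESeq2, so Tgfb1 passed the threshold with DESeq2 and missed it with edgeR. The two-sided exact permutation p was 0.00758, where 6 against 7 mice allow none below 0.000583, and it was 0.00216 to 0.0164 with 1 mouse left out. With 1 mouse left out edgeR gave a log2 fold change of 0.43 to 0.58 and an FDR of 0.0576 to 0.200. Nod2-/- replicate 7, the mouse with the highest Tgfb1 level, also had the highest summed levels of macrophage markers (9765) and neutrophil markers (15645). Without it the Nod2-/- mean was 94.1 ± 14.8 (SD, n = 6) and the log2 fold change was 0.43 (edgeR FDR = 0.169, exact permutation p = 0.0130).

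Marker genes of other cells that make TGFβ mostly had higher estimates in Nod2-/- mice as well. Macrophage markers summed to 2522 to 4881 in WT and 2921 to 9765 in Nod2-/- mice, and 7 of 8 tested had a higher estimate in Nod2-/- mice with 0 past 5% FDR by edgeR or DESeq2 and 1 at an unadjusted p under 0.05. Platelet and megakaryocyte markers summed to 32.04 to 86.8 in WT and 58.5 to 260 in Nod2-/- mice, with 2 of 8 abundant enough to be tested by edgeR, both with a higher estimate, 0 past 5% FDR by edgeR, 1 at an unadjusted p under 0.05 and 1 past 5% FDR by DESeq2. Neutrophil markers summed to 59.2 to 135 in WT mice, 90.9 to 653 in Nod2-/- replicates 1 to 6 and 15645 in Nod2-/- replicate 7. By edgeR 3 of 8 were tested, all 3 with a higher estimate and an unadjusted p under 0.05, with 0 past 5% FDR by edgeR and 4 of the 8 by DESeq2. Their median log2 fold change of 4.85 includes Nod2-/- replicate 7, and the value without that mouse is not given here. T cell markers summed to 22.1 to 54.2 and 36.4 to 110, with 2 of 8 tested, both with a higher estimate, 0 past 5% FDR by edgeR or DESeq2 and 1 at an unadjusted p under 0.05. Of all genes tested, 23.1% had an unadjusted p under 0.05 by edgeR and 7.29% were past 5% FDR by DESeq2. The part of these cells in the Tgfb1 difference was not tested.

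**Figure D3:**
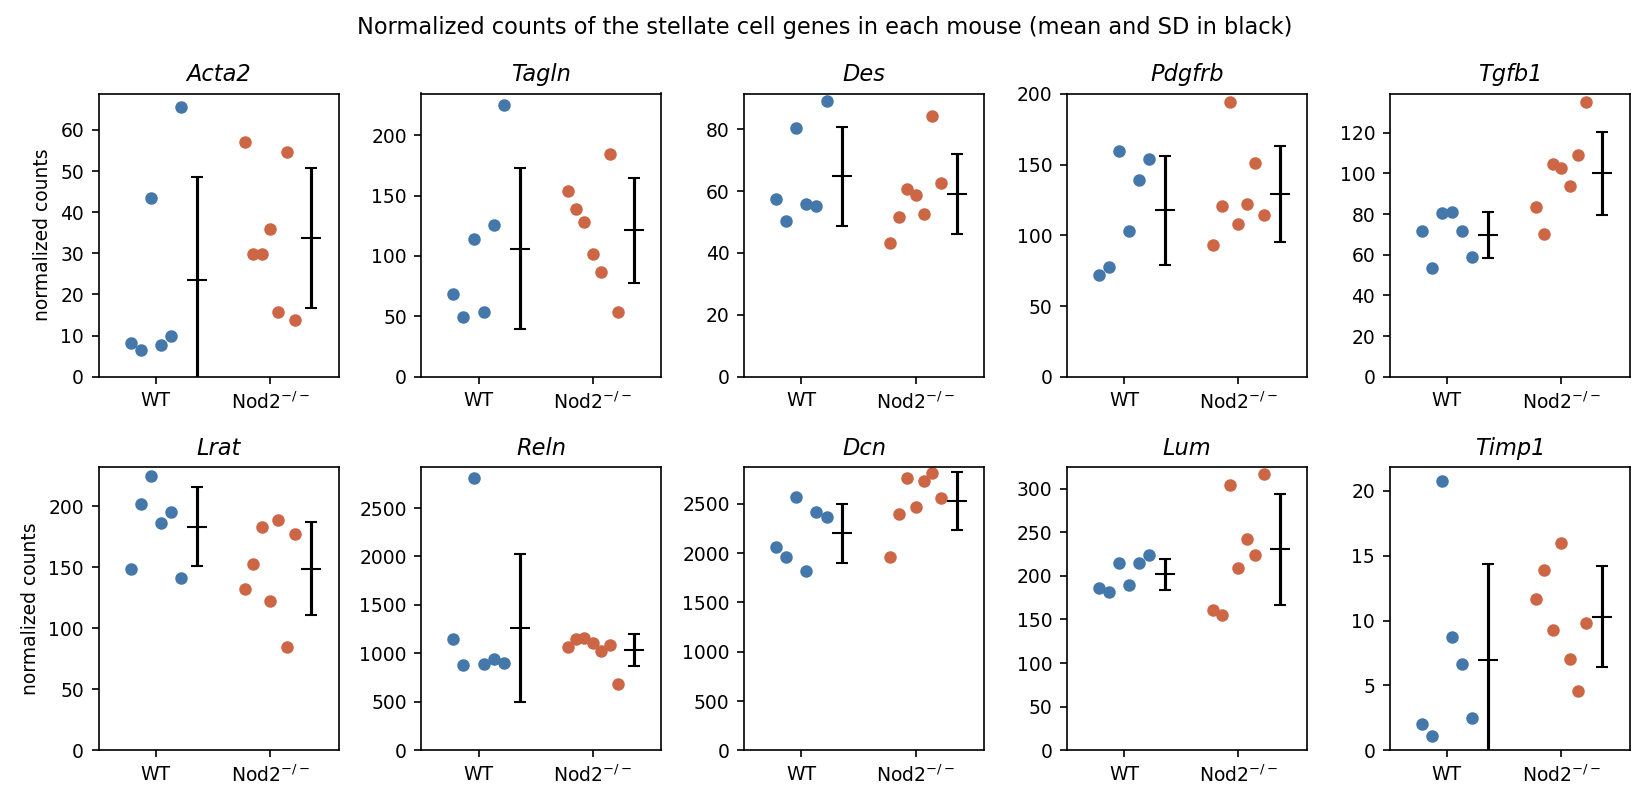
Normalized counts of each stellate cell gene in every mouse (points, replicates 1 to 6 of WT and 1 to 7 of Nod2-/- from left to right), with the mean and SD in black; bars that reach below 0 are cut at the axis. For Tgfb1, 6 of 7 Nod2-/- mice lie above every WT mouse, and for the other 9 genes at most 3 do.

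Lrat encodes the enzyme that esterifies retinol for storage and is the most specific marker of stellate cells in the liver. The gene (ENSMUSG00000028003.6) is on chromosome 3, at 82892579 to 82903973. Lowest, median and highest normalized counts were 141, 191 and 225 in WT mice and 84.2, 153 and 189 in Nod2-/- mice. Replicates 1, 4 and 6 of the Nod2-/- group were below every WT mouse, and the other 4 lay inside the WT range. The means were 183 ± 32.4 (SD, n = 6) and 149 ± 38.2 (SD, n = 7), with a log2 fold change of -0.30 (SE 0.18, 95% interval -0.68 to 0.08, edgeR FDR = 0.326). The two-sided exact permutation p was 0.122. The estimate stayed negative with any 1 mouse left out (-0.36 to -0.20, the value nearest 0 being that without Nod2-/- replicate 6). The correlation of Lrat with Acta2 was r = -0.43 over the 13 mice (permutation p = 0.108, adjusted 0.172) and rho = -0.39 (permutation p = 0.182, adjusted 0.291), and r = -0.42 without WT replicates 2 and 4 (permutation p = 0.169).

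Reln encodes reelin, a large secreted glycoprotein best known from the layering of the brain, which stellate cells also make. The gene (ENSMUSG00000042453.14) spans 21884454 to 22344702 of chromosome 5. The lowest, median and highest normalized counts were 877, 919 and 2808 in WT mice and 681, 1082 and 1157 in Nod2-/- mice. WT replicate 3 (2808) was far above the next WT mouse (1147), and Nod2-/- replicate 7 (681) was far below the next Nod2-/- mouse (1029). The sign of the difference depended on WT replicate 3. With all 13 mice the log2 fold change was -0.28 (SE 0.26, 95% interval -0.83 to 0.27, edgeR FDR = 0.528), and without that mouse it was 0.11 (edgeR FDR = 0.583, range 0.417 to 0.708 with any 1 mouse left out), with means of 951 ± 112 (SD, n = 5) and 1037 ± 163 (SD, n = 7). Without both mice it was 0.21 (edgeR FDR = 0.162). In WT replicate 3 the summed mesothelium markers (353) and the summed sinusoidal endothelium markers (5038) were also the highest of all mice, and their part in its Reln level was not tested. Lrat and Reln showed r = 0.12 (permutation p = 0.6247, adjusted 0.6247) and rho = 0.05 (permutation p = 0.875, adjusted 0.875), and r = 0.26 without Nod2-/- replicates 4 and 6 (permutation p = 0.503).

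Dcn and Lum encode decorin and lumican, proteoglycans that coat collagen fibrils and set their width. Dcn (ENSMUSG00000019929.16) lies on chromosome 10 at 97479609 to 97518143, and Lum (ENSMUSG00000036446.5) lies beside it at 97565128 to 97572703. The lowest, median and highest normalized counts of Dcn were 1818, 2216 and 2572 in WT mice and 1962, 2562 and 2819 in Nod2-/- mice. Replicates 3, 5 and 6 of the Nod2-/- group exceeded every WT mouse, and Nod2-/- replicate 1 was lower than 5 of the 6 WT mice. The means were 2200 ± 295 (SD, n = 6) and 2529 ± 295 (SD, n = 7), with a log2 fold change of 0.20 (SE 0.11, 95% interval -0.03 to 0.43, edgeR FDR = 0.269). The two-sided exact permutation p for Dcn was 0.0781. With 1 mouse left out, an alternative that was not planned, it ranged from 0.0173 (without Nod2-/- replicate 1) to 0.170 (without WT replicate 4). Apart from Nod2-/- replicate 1, only leaving out WT replicate 3 took this p under 0.05 (0.0417).

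Lum was more even in WT than in Nod2-/- mice. Its lowest, median and highest normalized counts were 181, 202 and 224 in WT mice and 155, 224 and 317 in Nod2-/- mice. Of the Nod2-/- mice 3 had Lum levels above the WT range, 2 had levels below it, and the remaining 2 were inside. The coefficient of variation was 9.06% in WT and 27.5% in Nod2-/- mice, and the log2 fold change was 0.19 (SE 0.16, 95% interval -0.15 to 0.54, edgeR FDR = 0.491). Without Nod2-/- replicate 3 the estimate for Lum was 0.11, and without Nod2-/- replicate 7 it was 0.10. Dcn and Lum correlated over the 13 mice with r = 0.63 (permutation p = 0.00932, adjusted 0.0373) and rho = 0.62 (permutation p = 0.0247, adjusted 0.0988), and without Nod2-/- replicate 1 and WT replicate 4 with r = 0.53 (permutation p = 0.0356). Kera and Epyc, the related proteoglycan genes that follow Lum on chromosome 10, had 0 counts in all mice. The 5 genes whose log2 levels were most like those of Dcn over the 13 mice were Nod1 (r = 0.89), a peptidoglycan sensor related to Nod2, Adm (0.89), which encodes adrenomedullin, Rbm43 (0.86), Gpm6a (0.86), a gene of the mesothelium list, and Ccdc80 (0.86), which encodes a matrix protein. As for Acta2, these were the highest values picked from all genes tested.

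Timp1 encodes a tissue inhibitor of metalloproteinases that activated stellate cells secrete, and by which they slow the breakdown of collagen. The gene (ENSMUSG00000001131.11) is on chromosome X at 20870166 to 20874735, inside an intron of Syn1, which had 0 to 6 counts. Timp1 was close to the limit of detection at this depth, with 1 to 23 counts in WT and 4 to 16 counts in Nod2-/- mice. Its lowest, median and highest normalized counts were 1.10, 4.54 and 20.8 in WT mice and 4.55, 9.80 and 15.96 in Nod2-/- mice. WT replicate 3 was the highest of all mice, and all 7 Nod2-/- mice lay within the WT range. Timp1 did not pass edgeR's filter on low counts. The difference of mean log2(normalized counts + 1), Nod2-/- minus WT, was 0.89 (two-sided exact permutation p = 0.115), and without WT replicate 3 it was 1.28 (exact permutation p = 0.0139). With any other single mouse left out the exact permutation p was 0.0866 to 0.249. By DESeq2 the log2 fold change of Timp1 was 0.55 (DESeq2 FDR = 0.592), and by edgeR with no filter on low counts 0.53 (edgeR FDR = 0.566). Timp1 correlated with Tgfb1 at r = 0.32 (permutation p = 0.274, adjusted 0.365) and rho = 0.34 (permutation p = 0.275, adjusted 0.367), and without Nod2-/- replicate 7 and WT replicate 2 at r = 0.21 (permutation p = 0.513). With Acta2 it correlated at r = 0.24 (permutation p = 0.528, adjusted 0.604) and rho = 0.20 (permutation p = 0.560, adjusted 0.640), and without WT replicates 2 and 4 at r = 0.19 (permutation p = 0.711).

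**Figure D4:**
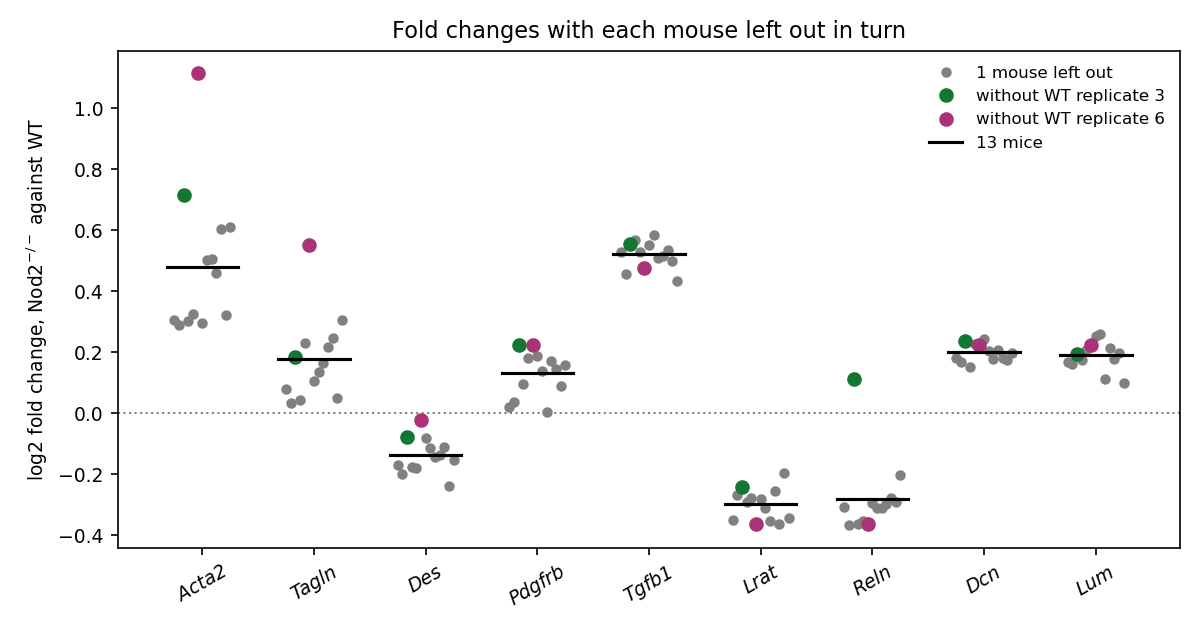
Log2 fold change of the 9 tested genes, Nod2-/- against WT, with each mouse left out in turn (points, edgeR) and with all 13 mice (black lines). Reln is above 0 only without WT replicate 3 (0.11), Acta2 (1.12) and Tagln (0.55) are highest without WT replicate 6, and Tgfb1 keeps to 0.43 to 0.58.

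Per length of exon, Dcn was the most abundant of the 10 transcripts. Its median over the 13 mice was 414 normalized counts per kb of exon, and its range (311 to 483) did not overlap that of any other member. Lum (median 87.5, range 63.2 to 129), Tagln (57.3, 24.8 to 113) and Reln (44.9, 28.7 to 118) followed, each overlapping its neighbours. Lrat (33.2 per kb), Pdgfrb (22.1), Tgfb1 (16.1), Des (15.3), Acta2 (13.5) and Timp1 (9.88) were lower, and none of these neighbours in the order differed beyond the range of the mice. The level of Acta2 per kb ran from 2.996 to 29.8 and overlapped that of Lrat (15.7 to 42.1).

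**Figure D5:**
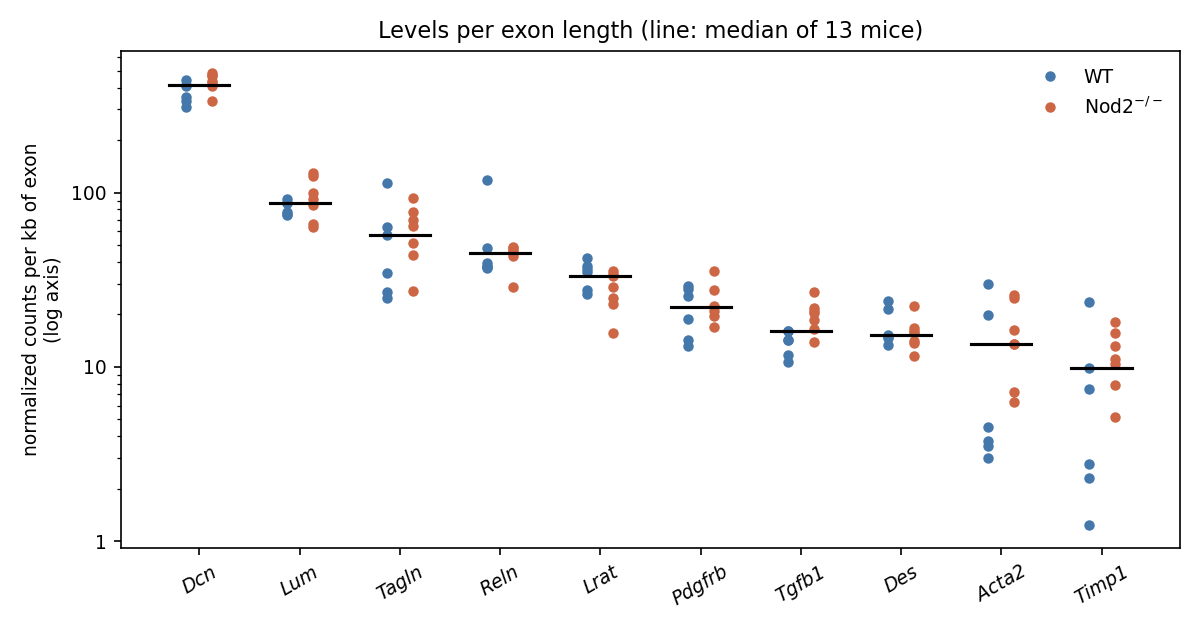
Normalized counts per kb of exon for each stellate cell gene and mouse (points) on a log axis, in order of the median over 13 mice (lines). Dcn (median 414) stands apart from the other 9 genes, and Acta2 (13.5) and Timp1 (9.88) are lowest.

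Other genes of the same pathways were read from 10 lists with 166 genes in all, of which 136 were tested. By edgeR 2 of the 136 were past 5% FDR, Rgs5 and Mmp14, both higher in Nod2-/- mice, where 1.16% of all genes tested passed, and 28 had an unadjusted p under 0.05, where 23.1% of all genes tested did. These shares were 1.47% and 20.6% of the 136. By DESeq2 5 were past 5% FDR, where 7.29% of genes tested passed, and 0 in each of the TGFβ, PDGF, proteoglycan, reelin, serum response factor and paralog lists. The median log2 fold change over the 136 was 0.08, beside 0.02 over all genes tested.

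Of 14 genes of quiescent stellate cells, all tested, 11 had a higher and 3 a lower estimate in Nod2-/- mice, with a median of 0.13 and 1 past the threshold. Rgs5, which encodes a regulator of G protein signalling found in pericytes as well as stellate cells, was 719 ± 63.5 (SD, n = 6) in WT and 1057 ± 216 (SD, n = 7) in Nod2-/- mice. Of the Nod2-/- mice 6 were above every WT mouse, and the log2 fold change was 0.55 (SE 0.13, edgeR FDR = 0.0490). The call rested on most of the mice: it was lost without any of WT replicates 1, 2, 4, 5 and 6 or Nod2-/- replicates 2, 5, 6 and 7 (highest edgeR FDR 0.131), at a log2 fold change of 0.51 to 0.62 over all 13 such fits. The transcription factors Hand2 (-0.04) and Lhx2 (0.07), which belong to the stellate cell identity and were chosen for mention after their values were seen, had log2 fold changes near 0.

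Of 27 genes of activated stellate cells and myofibroblasts 24 were tested, 14 with a higher and 10 with a lower estimate and a median of 0.02. By edgeR 0 were past 5% FDR and 5 had an unadjusted p under 0.05 (20.8% of the 24, beside 23.1% of all genes tested). S100a6, a calcium-binding protein gene, had a log2 fold change of 1.57 (edgeR FDR = 0.0951, DESeq2 FDR = 0.0186), which was 0.82 without Nod2-/- replicate 7. Spp1, which encodes osteopontin and is also a cholangiocyte marker, had 1452 ± 1119 (SD, n = 6) and 3586 ± 1608 (SD, n = 7) normalized counts and a log2 fold change of 1.30 (edgeR FDR = 0.109). Cholangiocyte markers summed to 868 to 3943 in WT and 2044 to 7004 in Nod2-/- mice, with 4 of 7 tested higher and 1, Sox9, past the threshold (named after its value was seen, log2 fold change 1.29, edgeR FDR = 0.0324), and their part in the Spp1 level was not tested.

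The ligand and receptor lists gave no gene past 5% FDR by edgeR. Of 28 genes of the TGFβ pathway 26 were tested, 19 with a higher and 7 with a lower estimate, with a median of 0.09. At an unadjusted p under 0.05 there were 2 (7.69% of the 26, beside 23.1% of all genes tested). These were Skil (log2 fold change 0.34, edgeR FDR = 0.148), which encodes a repressor of SMAD signalling, and Smurf2 (-0.22, edgeR FDR = 0.157), a ubiquitin ligase that targets SMADs and the TGFβ receptor. Of 14 genes of the PDGF pathway 13 were tested, 9 with a higher and 4 with a lower estimate, with a median of 0.01. At an unadjusted p under 0.05 there were 3 (23.1% of the 13, the same share as of all genes tested). Among them Pdgfd, a ligand of the Pdgfrb receptor, had a log2 fold change of 0.43 (edgeR FDR = 0.196) and Ptpn11, a phosphatase that relays receptor signals, one of -0.19 (edgeR FDR = 0.207).

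Of 29 genes of retinoid storage and metabolism 23 were tested, 9 with a higher and 14 with a lower estimate, with a median of -0.08. By edgeR 0 passed 5% FDR and 8 had an unadjusted p under 0.05 (34.8% of the 23, beside 23.1% of all genes tested), with 5 estimates higher and 3 lower in Nod2-/- mice. The retinol dehydrogenase gene Rdh5 had 266 ± 27.7 (SD, n = 6) and 373 ± 66.7 (SD, n = 7) normalized counts and a log2 fold change of 0.49 (edgeR FDR = 0.0601, DESeq2 FDR = 0.0125). Hepatocytes handle retinoids too, and their 8 markers were all tested, 5 with a higher and 3 with a lower estimate. Of these markers 0 were past 5% FDR by edgeR and 4 had an unadjusted p under 0.05. By DESeq2 3 were past 5% FDR, where 7.29% of genes tested passed. Of 6 reelin receptor and signalling genes 5 were tested with 0 past 5% FDR by edgeR. At an unadjusted p under 0.05 there was 1 (20% of the 5), Dab1, the adaptor that carries the reelin signal. It had 54.8 ± 45.0 (SD, n = 6) and 169 ± 109 (SD, n = 7) normalized counts and a log2 fold change of 1.603 (edgeR FDR = 0.102), and Fyn, a kinase that acts on it, had 0.21 (edgeR FDR = 0.425).

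Of 14 further small leucine-rich proteoglycan genes 6 were tested, 2 with a higher and 4 with a lower estimate, with a median of -0.21. By edgeR 0 passed 5% FDR or an unadjusted p under 0.05. Bgn, which encodes biglycan, had 1356 ± 281 (SD, n = 6) and 1202 ± 177 (SD, n = 7) normalized counts (log2 fold change -0.17, edgeR FDR = 0.439), and Omd, which encodes osteomodulin, a log2 fold change of -0.47 (edgeR FDR = 0.506). Of 16 other TIMP and matrix protease genes 13 were tested, 5 with a higher and 8 with a lower estimate, with a median of -0.07 and 1 past the threshold. Mmp14, which encodes a membrane-bound metalloproteinase that activates MMP2, was 237 ± 64.6 (SD, n = 6) in WT and 677 ± 339 (SD, n = 7) in Nod2-/- mice. For Mmp14 all 7 Nod2-/- mice were above every WT mouse, where 1.44% of genes tested did not overlap in either direction. Its log2 fold change was 1.51 (SE 0.29, edgeR FDR = 0.0275). The call was lost without any of WT replicates 1, 2, 4 and 5 or Nod2-/- replicate 7 (highest edgeR FDR 0.0813), and the log2 fold change stayed at 1.26 to 1.64. Adamts1, which encodes a secreted protease, had a log2 fold change of 0.64 (edgeR FDR = 0.160).

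A list of 20 genes held those of serum response factor and its coactivators and genes it controls, most but not all of them contractile. Of the 20, 17 were tested, 14 with a higher and 3 with a lower estimate, with a median of 0.21. By edgeR 0 were past 5% FDR and 2 had an unadjusted p under 0.05 (11.8% of the 17, beside 23.1% of all genes tested). Tpm1, a tropomyosin gene, had 533 ± 219 (SD, n = 6) and 837 ± 263 (SD, n = 7) normalized counts (log2 fold change 0.65, edgeR FDR = 0.148), and Mylk, which encodes myosin light chain kinase, had a log2 fold change of -0.39 (edgeR FDR = 0.168). The actin genes closest in sequence to Acta2 had few counts, with 0 for Acta1, 0 to 2 for Actc1 and 0 to 11 for Actg2, whereas Actb had 4348 to 8553. How reads shared between actin genes were counted is not given in the sources used here. Of 7 actin and transgelin paralogs 3 were tested, all with a higher estimate and 0 past 5% FDR by edgeR. Those with the lowest p were Tagln2 (log2 fold change 0.88, edgeR FDR = 0.134) and Actg1 (0.44, edgeR FDR = 0.194), both at an unadjusted p under 0.05 (66.7% of the 3).

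Markers of other contractile and mesenchymal cells, which can express Acta2, Tagln, Des, Pdgfrb, Dcn and Lum, mostly had higher estimates in Nod2-/- livers. Those of mesothelium mostly had lower ones. Vascular smooth muscle markers summed to 705 to 934 in WT and 939 to 1416 in Nod2-/- mice, ranges that narrowly missed each other. Rgs5, which is also in the list of quiescent stellate cells, made up most of that sum. Alone it overlapped between the genotypes (highest WT value 789, lowest Nod2-/- value 785). Of the 8 markers 4 were tested, all with a higher estimate, 1 past the threshold by edgeR (Rgs5) and 2 by DESeq2, Rgs5 and the receptor gene Notch3. The log2 fold change of Notch3, named after its value was seen, was 1.12 (edgeR FDR = 0.0526, DESeq2 FDR = 0.00816). All 7 Nod2-/- mice were above every WT mouse for Notch3, and 1.44% of genes tested did not overlap between the genotypes in either direction. Myocd and Kcnmb1 had at most 3 counts in every mouse. Portal fibroblast markers summed to 109 to 305 in WT and 242 to 444 in Nod2-/- mice, with 6 of 8 tested, all with a higher estimate (median 0.73), 0 past 5% FDR by edgeR, 3 at an unadjusted p under 0.05, 1 past 5% FDR by DESeq2, and Gli1 at 3 counts or fewer. Mesothelium markers summed to 101 to 353 and 79.7 to 286, with 6 of 8 tested, 2 with a higher and 4 with a lower estimate. Of them 0 were past 5% FDR by edgeR or DESeq2 and 1 had an unadjusted p under 0.05. Sinusoidal endothelium markers summed to 3649 to 5038 and 3920 to 4910, with all 8 tested and 7 with a higher estimate. By edgeR 0 of these were past 5% FDR and 2 had an unadjusted p under 0.05, and by DESeq2 1 was past 5% FDR. Skeletal muscle markers were at 7.0 to 14.4 in all mice, with 7 of 8 at 3 counts or fewer. Of all genes tested, 23.1% had an unadjusted p under 0.05 by edgeR and 7.29% were past 5% FDR by DESeq2. The part of these cells in the values of the 10 genes was not tested.

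Markers of tissue next to the liver also varied. Lung epithelium markers summed to 236 to 3323 in WT and 49.7 to 544 in Nod2-/- mice. Of the 8 markers 5 were tested, all 5 with a lower estimate and an unadjusted p under 0.05, where 23.1% of all genes tested had such a p. Adipose tissue markers summed to 26342 to 131329 in WT and 7367 to 86835 in Nod2-/- mice. Of these 8 markers 3 were tested, 2 with a higher and 1 with a lower estimate, and Lep and Plin1 had at most 3 counts in every mouse. Pancreas acinar markers summed to 588 to 1330 and 222 to 937, with 7 of 8 at 3 counts or fewer. That sum was nearly all from 1 gene, Cela1, the only one tested (log2 fold change -0.83). The part of these tissues in the stellate cell gene values was not tested.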

How the data were processed

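Liver RNA of 6 WT and 7 Nod2-/- mice was sequenced from stranded libraries of polyadenylated RNA. The authors used Trimmomatic 0.33 for trimming and TopHat2 2.1.1 for mapping to GRCm38 with GENCODE genes, and deposited unnormalized counts per gene and mouse. The counting program and its use of strand and of reads that map to several places are not given in the sources used here. An entry without a gene identifier (0 counts) was left out. Symbols and positions came from GENCODE, which held 53360 of the 53465 genes, promoter windows from RefSeq. Columns of other samples were not found (0 left out).

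Genes kept by filterByExpr were tested in R 4.3.3 with edgeR 4.0.16 (TMM, glmQLFit and a two-sided glmQLFTest on genotype alone), with a Benjamini-Hochberg FDR threshold of 0.05. Single genes were compared by exact permutation tests of log2(normalized counts + 1) over all splits of the mice, pairs of genes by correlation of deviations from the genotype means with 100000 permutations within genotype. Alternatives were DESeq2 1.42.0, voomWithQualityWeights of limma 3.58.1, RLE normalization, no filter, a minimum of 10 counts in each mouse, a replicate block and leaving out each mouse. The edgeR, DESeq2 and limma steps were tested on simulated data. Libraries of a genotype all differed by more than sampling noise (36 pairs, lowest chi-square over its degrees of freedom 10.7). At most 3 counts in every mouse was taken as not detected, which covers counting error only.

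The members, the 10 pathway lists and the 14 marker lists were chosen with earlier results of these data known. Named genes are the members, from each list the genes past 5% FDR or, below 2, those with the lowest p up to 2 in all, overlapping or neighbouring genes, paralogs of Acta2 and Tagln, and the 5 genes most like Acta2 and Dcn by Pearson's r. Results for some single genes are not given.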

Additional observations from a re-analysis of the deposited data

Results flagged for a closer look

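Both results concern Reln, the reelin gene. Among the 6 WT mice, replicate 3 had 2808 normalized counts and the next highest mouse 1147, a gap that took up 0.860 of the range of the group and was above Dixon's 95% critical value. Among the 7 Nod2-/- mice, replicate 7 had 681 normalized counts and the next lowest mouse 1029, a gap of 0.732 of the range and likewise above the critical value for its size. These were 2 of 20 groups examined, and chance alone gives about 1 such mouse in 20 groups. Without WT replicate 3 the log2 fold change of Reln was 0.11 in place of -0.28.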

How the results depend on the processing

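Of 179 alternative fits of single members 175 kept the direction and the side of the threshold, 1 passed it (Tgfb1 with DESeq2, log2 fold change 0.51, FDR = 0.0406) and 3 had the opposite sign, all for Reln. Reln was 0.028 with voomWithQualityWeights and -0.37 to 0.11 by edgeR with 1 mouse left out, where the positive value is that without WT replicate 3. By edgeR it was 0.21 without WT replicate 3 and Nod2-/- replicate 7, an alternative chosen after seeing the data. The difference in mean log2(normalized counts + 1) of Reln was -0.22 to 0.11 with 1 mouse left out (exact permutation p = 0.428 to 0.989). Members past 5% FDR numbered 0, with DESeq2 1, and 0 in each of the 13 fits with 1 mouse left out.

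Genes past 5% FDR numbered 157, with DESeq2 1154, with voomWithQualityWeights 843, with the replicate block 35, without both mice 567, and with 1 mouse left out 41 to 1156. That count was 1156 without WT replicate 3, and 41, 45, 42 and 52 without WT replicates 1, 2, 4 and 5 and 67, 81 and 54 without Nod2-/- replicates 4, 6 and 7. Pathway genes past 5% FDR numbered 2, with DESeq2 5, with voomWithQualityWeights 11, with RLE normalization 1, with no filter 1, with the replicate block 0, without both mice 11, and with 1 mouse left out 0 (without WT replicate 1, 2, 4 or 5 or Nod2-/- replicate 7) to 13 (without WT replicate 3). The cause was not tested.

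The replicate numbers did not pair the mice: 1 of 6 same-numbered pairs correlated above 0.1 (-0.30 to 0.29), and 0 WT mice correlated best with their own number. With the replicate block Acta2 had a log2 fold change of 1.02 (edgeR FDR = 0.302), Tgfb1 0.43 (edgeR FDR = 0.174) and Lum 0.07 (edgeR FDR = 0.786). Acta2 was 1.26 with voomWithQualityWeights (limma FDR = 0.132). Depth limited Timp1, with 1 to 23 counts, and Acta2, with 6 to 80, most.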
